A study of Mus musculus with 7 samples.

Results

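The regions described here are places in the mouse genome that the vitamin D receptor (VDR) occupied with and without added hormone and that lie far from any gene start. VDR was mapped with the antibody sc-1008 by ChIP-seq, the sequencing of DNA recovered by immunoprecipitation of chromatin, in epithelial cells released with EDTA from duodenum and jejunum. The wild-type mice ate a standard chow and were 8 weeks old. They were given vehicle (3 libraries) or 10 ng of 1,25(OH)2D3, the active hormone made from vitamin D, for each g of body weight (3 libraries), and tissue was taken after 1 h. The labels leave it unsaid if each library is 1 mouse, so p-values measure only the spread between these libraries. The cells of a mouse on this diet see their own circulating hormone, so vehicle means no added hormone rather than none. The deposited files are peak lists without expression values, so the epithelial identity of the cells could not be checked against marker genes.

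Overlapping peaks of the 6 libraries (at least 1 bp shared, chromosomes 1 to 19 and X) were joined into 86995 regions. A region with a peak in every one of the 3 vehicle and 3 1,25(OH)2D3 libraries was called constitutive, and 4345 regions were. Of these, 382 (8.79%, 95% Wilson interval 7.99 to 9.67) had a centre more than 100 kb from the nearest annotated transcription start of a protein-coding gene, and they are the members described below. The members were chosen by the presence of a peak in all 6 libraries and by their distance from a start, so neither is a finding. The vehicle libraries held from 15991198 to 68560701 tags and from 8756 to 48425 peaks, and the 1,25(OH)2D3 libraries from 17152461 to 66524392 tags and from 25510 to 41722 peaks. Replicate 3 was the deep library of both groups. The shortest list, vehicle replicate 1, set the number of members more than any other: without it there were 641 members.

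VDR is a nuclear receptor that binds DNA as a heterodimer with the retinoid X receptor (RXR). Its usual binding element, called DR3, is a direct repeat of a hexamer with a spacer of 3 bases. In the absorbing cells of the proximal intestine VDR is known for its control of calcium uptake, through channels, binding proteins and the pump that moves calcium out of the cell toward the blood. Enhancers, the stretches of DNA through which such receptors act, can lie at a great distance from the start of the gene they regulate, and the nearest gene need not be that gene. Below, a gene is named with a region only because of where it lies. Its start is the nearest one or the nearest on one side of the region, or its body holds the region.

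The sequences below come from the 4 members upstream of Atp2b1, from others at the head of the peak lists and from others with an exact DR3, and show how the element looks in regions far from genes. Each is the reference sequence of mm9 read 5′ to 3′ on the strand given, with 25 bases on both sides of the best element, and the capitals mark the element. The coordinates are those of the whole printed stretch. Mismatches are counted against the DR3 consensus.

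The first 4 belong to the group upstream of Atp2b1, which encodes the plasma membrane calcium pump. They are printed from chr10:98056723-98056787, chr10:98114840-98114904, chr10:98139827-98139891 and chr10:98157878-98157942 on the minus strand, and the best element of each carried 2 mismatches.

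Atp2b1, 321 kb upstream: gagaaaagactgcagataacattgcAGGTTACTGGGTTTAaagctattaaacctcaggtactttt
Atp2b1, 263 kb upstream: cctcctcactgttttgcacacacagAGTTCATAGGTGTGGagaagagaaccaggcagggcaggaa
Atp2b1, 238 kb upstream: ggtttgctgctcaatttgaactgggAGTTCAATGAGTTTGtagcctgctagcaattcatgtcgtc
Atp2b1, 220 kb upstream: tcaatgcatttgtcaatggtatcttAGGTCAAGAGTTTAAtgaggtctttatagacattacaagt

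The next are other members from the head of the lists. They lie at chr5:119523042-119523106 (Med13l, plus strand, 1 mismatch), chr10:99119588-99119652 (Csl, minus strand, 0 mismatches), chr8:118064001-118064065 (Maf, minus strand, 1 mismatch), chr13:5526761-5526825 (Klf6, plus strand, 0 mismatches) and chr2:141111761-141111825 (Macrod2, plus strand, 0 mismatches).

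Med13l, 512 kb downstream: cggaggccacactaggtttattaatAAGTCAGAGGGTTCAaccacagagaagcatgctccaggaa
Csl, 103 kb downstream: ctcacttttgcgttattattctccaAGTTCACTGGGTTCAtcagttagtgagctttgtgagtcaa
Maf, 167 kb downstream: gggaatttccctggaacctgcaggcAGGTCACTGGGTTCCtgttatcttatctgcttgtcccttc
Klf6, 334 kb upstream: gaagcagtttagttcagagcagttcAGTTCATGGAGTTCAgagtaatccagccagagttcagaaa
Macrod2, 262 kb downstream: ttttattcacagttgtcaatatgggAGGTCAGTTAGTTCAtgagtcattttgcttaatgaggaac

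The last 3 hold elements with 0 mismatches, at members that stood lower in the lists than those just given. The members near Dsel and Klf6 stood far lower, and the one near Fam110b only slightly. The 3 stretches are printed from chr1:115427173-115427237 (Dsel, minus strand, the member farthest from a start), chr13:6100161-6100225 (Klf6, minus strand) and chr4:5427720-5427784 (Fam110b, plus strand).

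Dsel, 1666 kb upstream: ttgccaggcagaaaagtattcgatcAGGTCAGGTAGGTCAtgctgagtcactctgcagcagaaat
Klf6, 239 kb downstream: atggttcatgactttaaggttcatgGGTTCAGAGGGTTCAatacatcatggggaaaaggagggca
Fam110b, 143 kb upstream: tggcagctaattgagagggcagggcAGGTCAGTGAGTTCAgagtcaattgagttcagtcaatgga

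Most members lay between protein-coding genes: 311 of 382 (81.4%, 95% Wilson interval 77.2 to 85.0), with 71 (18.6%) in introns and 0 in exons. A count of 0 allows a share of up to 0.996% by the same interval. Of the constitutive regions from 1 to 100 kb from a start, 48.5% were in introns and 2.61% in exons. Only a gene longer than 100 kb can hold a member at that distance downstream of its own start, so the rule itself limits the intronic share. For 52 of the 71 intronic members the nearest start was that of the gene around them. The annotation also holds starts of noncoding genes and pseudogenes: 166 members (43.5%) had a start of some kind of gene within 100 kb, but only 6 (1.57%) had one within 1 kb. For 179 members (46.9%) the centre was upstream of the nearest start.

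The median distance from a start was 172 kb (quartiles 128 and 244). A total of 147 members were more than 200 kb away, 59 more than 300 kb and 17 more than 500 kb. The member farthest out lay 1666 kb upstream of Dsel, which encodes a dermatan sulfate epimerase-like protein, with 3820 kb between the starts on its 2 sides. It had a DR3 with 0 mismatches and stood low among the constitutive regions. The next in distance were near Slitrk6 (878 kb), Mms22l (875 kb), Cpxcr1 (731 kb), Pvrl3 (673 kb), Mat2b (665 kb), Auts2 (647 kb) and Zbbx (609 kb). At the other end, the members just inside the threshold were near Klf5 (100.58 kb), Chn2 (100.62 kb) and Esrrg (100.69 kb). The constitutive regions just outside it were near Pdk4 (99.86 kb), Slc25a26 (99.75 kb) and Snx18 (99.58 kb). The mean list percentiles of these 6 ran from 78.7 (Esrrg) to 96.6 (Pdk4), with members and regions outside in the same range. A list percentile is the place of a peak in its library's list, 100 for the first. It is an order and not a measured occupancy.

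**Figure D1:**
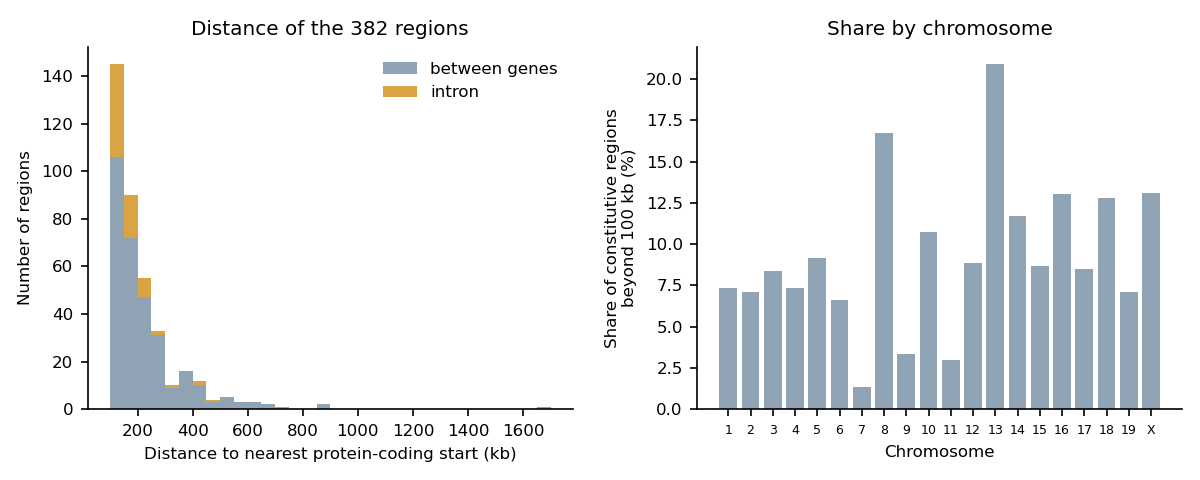
The left panel counts the 382 members by distance to the nearest protein-coding start in kb, stacked by place between genes or in an intron. The right panel gives, for each chromosome, the share of its constitutive regions that are members in percent, which ran from 1.31% on chromosome 7 to 20.9% on chromosome 13.

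Members were unevenly spread over chromosomes. Chromosome 13 held 42 of its 201 constitutive regions beyond 100 kb (20.9%) and chromosome 8 held 37 of 221 (16.7%). Chromosome 7 held 3 of 229 (1.31%), chromosome 11 held 9 of 302 (2.98%) and chromosome 9 held 7 of 208 (3.37%). The share beyond 100 kb was 8.00% among the 4687 regions with a peak in all 3 1,25(OH)2D3 libraries and in no vehicle library. It was 25.1% among regions found in 1 library only and 36.0% of all sequenced bases. These shares describe the lists, with no test. The share of bases beyond 100 kb was not computed for single chromosomes, and its part in the uneven spread was not tested.

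With 100 kb as the limit for linking neighbours, 192 members stood alone, 84 formed 42 pairs and 106 (27.7%) were in groups of 3 or more. The 382 members had 251 nearest genes, and 32 of these were nearest to 3 members or more. Maf, which encodes a basic leucine zipper transcription factor, was nearest to 8. Tbl1xr1, which encodes an exchange factor of the NCoR and SMRT corepressor complexes, was nearest to 7. The largest groups each had 8 members. One spanned 233 kb between Tbc1d1 and Klf3, which encode a Rab GTPase-activating protein and a zinc finger transcription factor. The other spanned 117 kb between Zpld1 and Nfkbiz, which encodes an atypical nuclear inhibitor of NF-kB. A group of 7 lay between Eci2, of fatty acid oxidation, and Cdyl, a chromodomain corepressor. Another constitutive region, of any distance class, lay within 50 kb of 157 members (41.1%) and of 51.7% of the constitutive regions 1 to 100 kb from a start. A region found only with hormone lay within 50 kb of 137 members (35.9%, against 46.8%).

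The rule needs peaks of fixed width to overlap, which bounds how far apart the centres of a member can lie, so their spread is a description. The SD of the 6 centres had a median of 35.9 bp over the members (quartiles 23.7 and 51.5) and of 35.1 bp over the constitutive regions from 1 to 100 kb. The 6 centres fell within 50 bp of each other in 67 members (17.5%). The narrowest range, 10 bp, was at the member inside Rabgap1l. No member held more than 1 peak of a library, and neither did any other constitutive region. No member lay within 10 kb of a gap of at least 10 kb in the assembly.

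Sequence around the centres was searched in windows of 201 bp on both strands. A DR3 with at most 2 mismatches was found in 276 members (72.3%, 95% Wilson interval 67.6 to 76.5), against 30.9% of windows 5 kb to their right and 46.0% of all 86995 regions. With at most 1 mismatch it was found in 115 (30.1%, 25.7 to 34.9), against 2.36% of the shifted windows and 10.9% of all regions. With 0 mismatches it was found in 26 (6.81%, 4.69 to 9.79) and in 0 shifted windows (up to 0.996%). Regions nearer to genes had similar shares: with at most 1 mismatch, 28.1% (26.6 to 29.6) from 1 to 100 kb and 26.7% (23.1 to 30.7) within 1 kb. These intervals overlapped that of the members. Of the 115 elements, 25 were centred within 10 bp of the region's centre, 58 within 25 bp and 94 within 50 bp, with 63 of 115 on the plus strand. A total of 5 members had 2 or more such elements.

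The spacer of 3 bases stood out when the same hexamers were searched in other arrangements, a comparison added after the data were seen. With at most 1 mismatch, direct repeats with a spacer of 3 were in 30.1% of the members and those with other spacers from 0 to 8 in 7.59% to 18.8%, where a spacer of 4 gave 18.8% and a spacer of 1 gave 18.3%. A window can hold several arrangements, because a hexamer can pair with more than 1 neighbour. Everted repeats ran from 1.57% to 9.16% and inverted repeats from 3.40% to 7.59%. In the 115 elements the 2 hexamers were not alike. The first was most often AGGTCA (26, 22.6%), followed by GGTTCA (13). The second was most often AGTTCA (23) and GGTTCA (18, 15.7%), with AGGTCA in only 7 (6.09%). The element of Macrod2 printed above has AGGTCA first and AGTTCA second. At position 3 of the element 61.7% had G and 32.2% had T, while at position 12 the order was turned, with 30.4% G and 67.8% T, counted from 1 at the 5′ end of the element. Position 9, in the spacer, was G in 51.3%. The 1107 such elements of the other constitutive regions had much the same letters, so this is not particular to the members. There AGGTCA was first in 17.5% and second in 8.94%. Position 3 had 63.8% G, position 12 had 63.1% T and position 9 had 51.7% G.

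**Figure D2:**
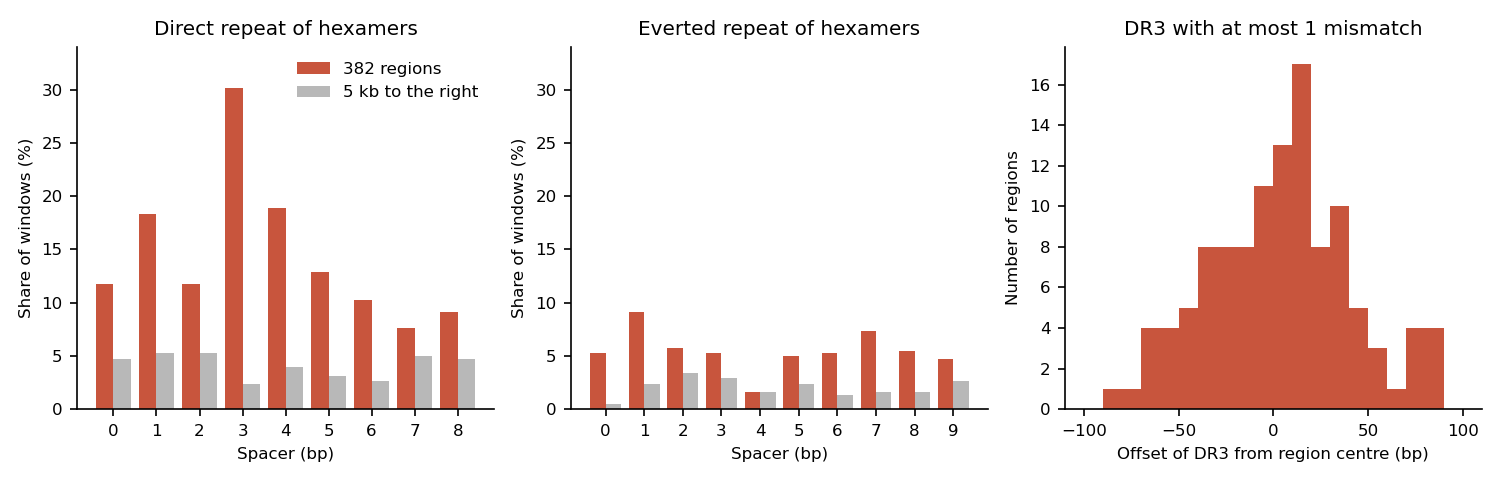
The left and middle panels give the share of the 382 windows (201 bp, percent) with a direct or an everted repeat of the hexamer at each spacer in bp, at most 1 mismatch, beside windows 5 kb to the right. The spacer of 3 in direct repeats gave 30.1% against 2.36%. The right panel counts the 115 DR3 elements by their offset from the region's centre in bp.

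Other letters were searched for as well. CAAAGTCCA with at most 1 mismatch, bound by HNF4 factors of the enterocyte, was in 86 members (22.5%, 18.6 to 27.0), in 6.81% of shifted windows and in 16.9% (13.9 to 20.4) of the constitutive regions within 1 kb. TGANTCA, the element of AP-1 factors, was in 63 members (16.5%, 13.1 to 20.5), in 4.71% of shifted windows and in 6.35% (4.55 to 8.78) of the regions within 1 kb. AGATAAG, bound by GATA factors, was in 44 members (11.5%, 8.69 to 15.1), in 2.62% of shifted windows and in 5.38% (3.75 to 7.67) of the regions within 1 kb. In the regions from 1 to 100 kb from a start the 3 shares were 22.9%, 14.4% and 10.5%. The intervals of the members and of the regions within 1 kb did not overlap for TGANTCA and AGATAAG, and no test was run. Over all 86995 regions the shares were 13.3% for CAAAGTCCA, 10.9% for TGANTCA and 5.97% for AGATAAG.

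Letters typical of promoters had lower shares in the members than in the regions within 1 kb. CCGGAAGT, the element of ETS factors, was in 2 members (0.524%, 0.144 to 1.89) and in 3.27% (2.05 to 5.17) of the constitutive regions within 1 kb. GGGCGGGG, bound by KLF and SP factors, was in 8 members (2.09%, 1.06 to 4.08) against 5.00% (3.43 to 7.23). TGACGTCA, the element of CREB, was in 0 members (up to 0.996%) against 1.54% (0.782 to 3.01). The intervals overlapped for the last pair of motifs and not for CCGGAAGT. A match describes the letters only. Members were poorer in G and C, with a median GC content of 45.3% in the window against 53.2% within 1 kb and 47.3% from 1 to 100 kb, and the part of base composition in these shares was not tested. A match to the CTCF motif with at most 1 mismatch was in 2.88% of the members and in 2.88% of the regions within 1 kb. TTTATTG, bound by CDX factors, was in 6.02% of the members against 7.59% of shifted windows.

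In every library the members ran slightly behind the other constitutive regions. Among the 4345 regions, ranked within a library and expressed as percentiles, the median member stood at 44.9, 45.0 and 45.4 in vehicle replicates 1, 2 and 3 and at 44.1, 45.0 and 45.1 in 1,25(OH)2D3 replicates 1, 2 and 3. The mean of the 3 medians was 45.1 ± 0.297 (SD, n = 3) with vehicle and 44.7 ± 0.561 (SD, n = 3) with hormone, so the groups overlapped. For the regions from 1 to 100 kb the 6 medians ran from 48.3 to 49.5, and for those within 1 kb from 57.8 to 64.3, above the members in each library. Members were still found at both ends. From 6 to 13 of them were in the first 100 constitutive regions of a library and from 7 to 10 in the last 100. Over members, the normal scores of rank had a Spearman correlation of 0.832 to 0.851 between vehicle libraries and of 0.912 to 0.945 between hormone libraries. Between groups it was 0.774 to 0.839, over 382 regions that share the same 6 libraries and the same input.

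**Figure D3:**
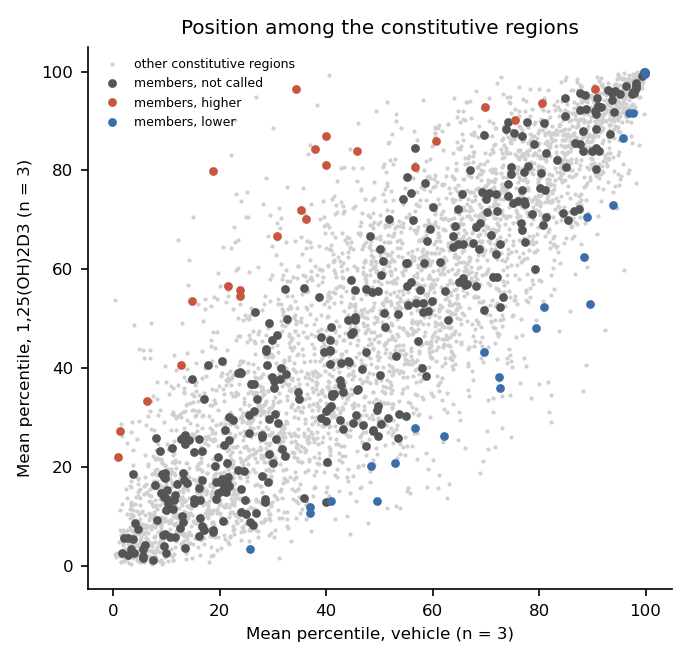
Each point is a constitutive region, placed by its mean percentile among the 4345 in 3 vehicle libraries (horizontal) and in 3 1,25(OH)2D3 libraries (vertical). Members that limma did not call are dark, the 23 called higher with hormone are red and the 23 called lower are blue. Other constitutive regions are light grey.

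The head of the list was close to the pump gene Atp2b1, which drives the exit of calcium from the enterocyte toward the blood. Its 4 members lay between 220 and 321 kb upstream, between 98056588 and 98158076 on chromosome 10 and inside a stretch of 1188 kb between the starts of C030005K15Rik and Atp2b1. The one 321 kb upstream, at chr10:98056588-98056894, had list percentiles of 99.90, 99.96 and 99.99 in vehicle replicates 1 to 3 and of 99.97, 99.98 and 99.98 in the hormone libraries. It was peak 9, 6 and 5 of the vehicle lists and peak 8, 7 and 7 of the hormone lists. No member had a higher mean percentile (99.97). The groups overlapped in whole lists, where list lengths differ. The member 238 kb upstream stood at 99.19, 99.22 and 99.85 with vehicle and at 99.64, 99.64 and 99.72 with hormone. The other two, at 220 and 263 kb, had mean percentiles of 98.0 and 92.2. The best DR3 of all 4 had 2 mismatches, so the members of highest rank here did not have the closest match to the consensus.

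Med13l, which encodes a subunit of the Mediator kinase module, had 3 members downstream. The strongest in order, 512 kb downstream at chr5:119522825-119523212, stood at 99.80, 99.88 and 99.97 with vehicle and at 99.96, 99.97 and 99.98 with hormone. Its place was 18, 18 and 17 in the vehicle lists and 11, 9 and 9 in the hormone lists. The hormone libraries were all ahead by place, but among constitutive regions limma's adjusted p was 0.167. Of the 2 others, the one 424 kb downstream had a mean percentile of 97.2 and the one 522 kb downstream stood lower.

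Csl, a citrate synthase-like gene, had a member 103 kb downstream at chr10:99119474-99119765 with an exact DR3. It stood at 99.81, 99.92 and 99.98 with vehicle and at 99.92, 99.91 and 99.94 with hormone, groups that overlapped. The 6 peak centres of this region fell within 24 bp. Next to Rbbp8, which encodes a DNA repair endonuclease cofactor, a member 137 kb upstream had a mean percentile of 99.93. The gene on its other side, 603 kb away, was Gata6, which encodes a zinc finger factor of intestinal epithelium. Gata6 was nearest to 2 other members, and the higher of them, 321 kb downstream, had a mean of 99.31. Among the other members at the head were 1 in an intron of Bcl2, which encodes an inhibitor of apoptosis (118 kb, mean 99.49), 1 near Trib1, a pseudokinase gene (138 kb, 99.31), and 1 in an intron of Macrod2, an ADP-ribosyl hydrolase gene (262 kb, 99.22).

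Of the 30 genes on a list of intestinal transcription factors, 8 were the nearest start on one side of a member: Gata6, Klf3, Klf4, Klf5, Klf6, Sox9, Maf and Atoh1. Together they flanked 42 members, of which 1 was called higher and 2 lower with hormone, by the test given below, in which 6.26% of all constitutive regions were called higher and 5.25% lower. Over all protein-coding genes 429 of 22208 (1.93%) flanked a member. The list was chosen with earlier results of these data known, genes with wide gaps around them have more room for a member, and no test was run. Maf had 13 members on its 2 sides, with mean list percentiles from 29.3 to 99.8. The one 167 kb downstream, at chr8:118063862-118064176, stood at 99.59, 99.81 and 99.93 with vehicle and at 99.89, 99.79 and 99.91 with hormone. The groups overlapped. A second member, 184 kb downstream, also had a DR3 with 1 mismatch and a mean of 99.15. These 2 and their neighbours at 182 and 168 kb formed a group of 4 within 17.7 kb.

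Klf6, whose zinc finger factor belongs to the KLF family, had 5 members as its nearest, on both sides. The one 334 kb upstream stood at 98.58, 99.43 and 99.88 with vehicle and at 99.50, 99.63 and 99.50 with hormone. Its exact DR3 is printed above. The member 239 kb downstream also had an exact DR3 but stood at 30.94, 24.78 and 75.04 with vehicle and at 69.72, 55.81 and 75.28 with hormone. The 2 Klf6 members thus had equal matches to the consensus and very different places in the lists. Klf5, of the proliferating crypt, had 4 members downstream between 101 and 389 kb, with the highest mean percentile at 97.4. Klf3 had 8 members upstream between 105 and 337 kb, with means from 74.2 to 98.8, and none of the 8 was called. Atoh1, the factor of secretory lineage commitment, shared a member with Smarcad1. It had a DR3 with 0 mismatches, 167 kb from the Atoh1 start, and a mean of 97.0.

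**Figure D4:**
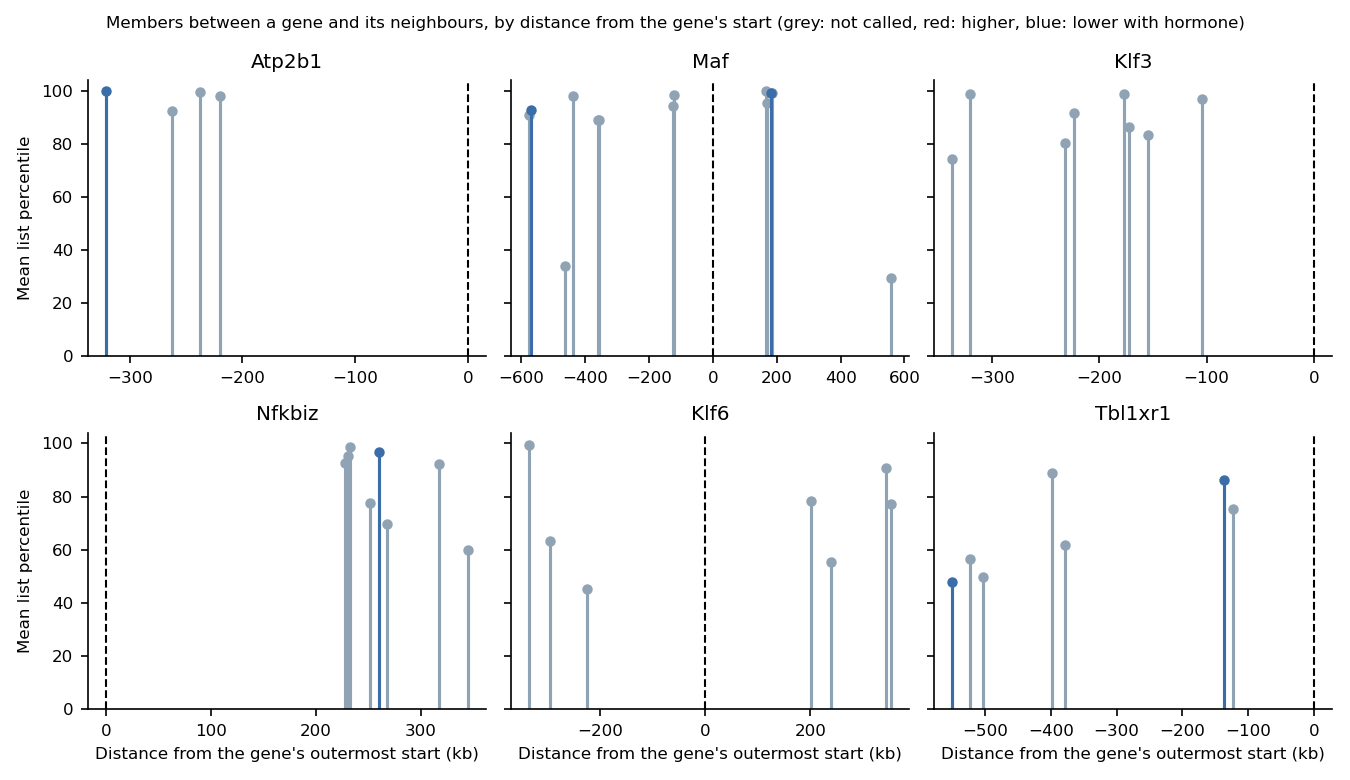
Each panel shows the members between a gene and its neighbouring starts, by distance from the outermost start of the gene in kb (negative is upstream, dashed line at 0). The height is the mean list percentile over 6 libraries. Blue marks members called lower with hormone and no member of these 6 loci was called higher. For Maf and Nfkbiz the outermost start is not the nearest transcript start used elsewhere.

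The other lists touched 1 to 4 genes each, a share of 4.55% to 12.5% of a list, beside 1.93% of all protein-coding genes. These lists too were chosen with earlier results known, and no test was run. On the list of calcium transport genes, Atp2b1 flanked the 4 members described above. Of 13 vitamin D genes only Gc did, which encodes the vitamin D binding protein of blood. Its member, 180 kb downstream at chr5:89706595-89706954, stood at 79.27, 82.39 and 93.76 with vehicle and at 93.44, 92.38 and 93.68 with hormone, groups that overlapped, and limma's adjusted p was 0.842. Its element had 1 mismatch and is printed from chr5:89706703-89706767 on the minus strand.

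Gc, 180 kb downstream: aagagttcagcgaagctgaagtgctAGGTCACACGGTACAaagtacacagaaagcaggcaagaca

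Of 14 coregulators only Med13l flanked members, 4 of them. Of 26 other nuclear receptors, Nr3c2, the mineralocorticoid receptor gene, and Esrrg flanked 3. Of 20 genes of metal and phosphate transport, Slc30a10, which encodes a manganese exporter, and Trpm6, which encodes a magnesium channel, flanked 1 each, with means of 85.9 and 77.0. The Trpm6 member lay inside that gene, and its nearest start was that of Rorb. Of 37 genes of growth, Wnt and BMP signalling 4 flanked members, with 3 members near Bmp2, which encodes a secreted growth factor. The highest of these 3, 187 kb downstream of Bmp2, had a mean of 97.8. Of 20 enterocyte genes only Sis, the sucrase-isomaltase gene, flanked a member, 449 kb away with a mean of 50.1. Of 22 genes of intracellular calcium signalling only Nfatc2 did, with a member among the 4 lowest of all (mean 29.1). The others of the lowest 4 were near Wwox (29.3), Nucb2 (27.5) and Cypt1 (27.4).

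Hormone was compared with vehicle on the place of a region among the 4345, since the lists hold no tag counts. limma was fitted to the normal scores of those ranks over all 4345 regions with Benjamini-Hochberg adjustment, and a call means an adjusted p below 0.05. Of the members 23 were called higher with hormone (6.02%, where all constitutive regions gave 6.26%) and 23 lower (6.02%, where all gave 5.25%). In either direction these were 46 of 382 (12%, against 11.5%), so the members' shares were near the background. The 3 hormone values were all above the 3 vehicle values in 53 members (13.9%, against 15.7%) and all below in 60 (15.7%, against 17%). A higher or lower place is relative to the other constitutive regions: a shift that all of them share cannot be seen. Since a member had to have a peak in every vehicle library, regions seen only with hormone are outside this comparison.

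The calls depended on the scale and on single libraries. With the percentile in the whole list, which follows the very different lengths of the lists, limma called 0 members higher and 0 lower, where 46 and 0 had an unadjusted p under 0.05. Without 1,25(OH)2D3 replicate 1, 2 or 3 there were 12, 13 and 13 calls of higher and 11, 9 and 13 of lower. With replicates 1 and 2 of each group only, without the deep libraries, there were 21 and 16. A set of 11 members kept their call in every setting except the whole-list percentile, 9 higher (near Pitpnb, Prkch, Sp4, Sytl5, Myc, Gramd3, Agmo, Far2 and Mms22l) and 2 lower (near Klf7 and Nfkbiz).

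The sequences of the members with the largest rise show that their best elements differed, from an exact DR3 at Prkch to 2 mismatches at Pitpnb, Sp4 and Sytl5. They lie at chr5:111551294-111551358 (minus strand), chr12:74821038-74821102 (minus), chr12:119642403-119642467 (plus), chrX:9577851-9577915 (minus) and chr15:61620705-61620769 (plus), and the last, upstream of Myc, has 1 mismatch.

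Pitpnb, 208 kb upstream: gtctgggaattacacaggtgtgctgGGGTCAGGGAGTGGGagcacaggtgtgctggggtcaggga
Prkch, 135 kb downstream: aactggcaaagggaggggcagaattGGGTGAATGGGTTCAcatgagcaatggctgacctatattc
Sp4, 103 kb upstream: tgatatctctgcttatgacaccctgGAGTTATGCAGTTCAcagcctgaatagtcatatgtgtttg
Sytl5, 115 kb downstream: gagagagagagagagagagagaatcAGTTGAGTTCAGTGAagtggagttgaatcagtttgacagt
Myc, 196 kb upstream: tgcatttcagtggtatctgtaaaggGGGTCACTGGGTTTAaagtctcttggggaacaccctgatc

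Pitpnb encodes a phosphatidylinositol transfer protein. The member 208 kb upstream of it stood at percentiles among constitutive regions of 46.7, 28.5 and 27.9 in vehicle replicates 1 to 3 and of 96.5, 99.1 and 94.0 with hormone. The groups were far apart, and the difference of 2.32 ± 0.228 (limma SE) in normal score had an adjusted p of 1.6e-05 by limma. Its 6 peak centres spread over 346 bp, more than the median range of 95 bp over the members, and the printed bases repeat a stretch of their own letters.

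The member in an intron of Prkch, which encodes protein kinase C eta, rose from the end of the order, with vehicle values of 0.0115, 0.449 and 3.21 and hormone values of 22.7, 28.2 and 30.8. The difference was 2.11 ± 0.402 (limma SE, adjusted p = 0.0029). Near Sp4, a zinc finger factor gene of the SP family, the member stood at 26.5, 3.79 and 26.2 with vehicle and at 81.3, 79.1 and 79.1 with hormone. It rose by 1.85 ± 0.277 (adjusted p = 6.1e-04 by limma). The member near Sytl5, which encodes a Rab27 effector, stood at 1.53, 0.334 and 0.725 with vehicle and at 26.0, 24.4 and 15.7 with hormone. Again the groups did not overlap (1.66 ± 0.312, adjusted p = 0.0026 by limma).

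Upstream of Myc, which encodes a transcription factor of cell growth, 2 members were called higher. The one 196 kb upstream stood at 24.3, 59.6 and 35.9 with vehicle and at 92.7, 74.8 and 93.3 with hormone (difference 1.48 ± 0.269, adjusted p = 0.0022 by limma). The spread within vehicle was wide, but no vehicle library reached a hormone library. The one 505 kb upstream moved from a mean of 12.8 to 40.7 (adjusted p = 0.018). Near Far2, a fatty acyl-CoA reductase gene, the vehicle values of 26.8, 43.6 and 49.8 faced hormone values of 82.7, 73.6 and 87.2. Near Mms22l, a gene of replication fork repair, the member 875 kb upstream stood at 44.6, 56.7 and 36.1 with vehicle and at 86.5, 79.7 and 85.6 with hormone. Of the 17 members beyond 500 kb it was called, as were those 665 kb downstream of Mat2b (means 23.9 and 55.9, adjusted p = 0.032), 505 kb upstream of Myc and 550 kb upstream of Tbl1xr1. Over all constitutive regions 11.5% were called, and with so few members beyond 500 kb nothing is read from this count. The remaining members among the 10 largest rises were near Gramd3 (1.36), Zfp608 (1.20) and in an intron of Agmo (1.19), an ether lipid-cleaving monooxygenase gene, given as differences in normal score.

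The elements of the members that fell were varied. The best match to the DR3 consensus had 3 or more mismatches, and so no element within the limit of 2, at 6 of the 10 members with the largest fall: both Tbl1xr1 members and those near Nfkbiz, Nr3c2, 3930402G23Rik and Lcorl. Over all 23 members called lower, 15 (65.2%, 44.9 to 81.2) had a DR3 with at most 2 mismatches, beside 21 of the 23 called higher (91.3%, 73.2 to 97.6) and 71.4% (66.4 to 76.0) of those not called. The intervals of those called lower and of the others overlapped. Over all constitutive regions the shares were 51.3% of those called lower (44.9 to 57.7) and 90.1% of those called higher (85.9 to 93.1). Of those not called it was 71.2% (69.8 to 72.6). There the intervals did not overlap, and no test was run. The bases around the centre of 3 of the members that fell are printed in lower case throughout, since no element is marked. They are on the plus strand at chr16:55578951-55579015, chr3:21838836-21838900 and chr8:79317929-79317993.

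Nfkbiz, 243 kb downstream: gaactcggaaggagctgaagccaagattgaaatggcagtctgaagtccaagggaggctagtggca
Tbl1xr1, 137 kb upstream: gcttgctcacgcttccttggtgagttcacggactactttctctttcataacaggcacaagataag
Nr3c2, 105 kb upstream: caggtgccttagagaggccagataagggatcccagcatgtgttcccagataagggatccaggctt

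Klf7, a zinc finger factor gene, was near the member with the largest fall. That member stood at 82.8, 93.4 and 92.7 with vehicle and at 46.6, 53.9 and 58.1 with hormone, with a difference of -1.23 ± 0.206 (limma SE, adjusted p = 0.0014). The groups did not overlap. The member 243 kb downstream of Nfkbiz stood at 91.3, 92.7 and 97.8 with vehicle and at 73.0, 74.7 and 71.3 with hormone (-0.99 ± 0.189, adjusted p = 0.0028 by limma). It was the only called member of the 8 in its group.

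Tbl1xr1 had 2 called members of its 7. The one 137 kb upstream stood at 69.7, 78.3 and 69.9 with vehicle and at 24.8, 39.1 and 43.9 with hormone (-0.98 ± 0.219, adjusted p = 0.0083 by limma). The one 550 kb upstream stood at 38.3, 14.0 and 24.7 with vehicle and at 5.17, 2.06 and 3.05 with hormone (-1.16 ± 0.290, adjusted p = 0.016 by limma). With vehicle the 2 stood at different heights in the order. Near Nr3c2, which encodes the receptor for aldosterone, the values were 50.9, 68.8 and 66.6 with vehicle and 25.6, 24.0 and 29.3 with hormone (-0.95 ± 0.218, adjusted p = 0.0097 by limma). Its window of 201 bp held AGATAAG 3 times, 2 of them in the printed bases.

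Near Dab2, an endocytic adaptor gene, the member had 50.5, 40.1 and 20.03 with vehicle and 21.7, 9.61 and 0.748 with hormone. It passed the threshold (adjusted p = 0.048 by limma) although its groups overlapped. Others of the 10 largest falls were near 3930402G23Rik (-1.12), Cpm (-0.94), which encodes carboxypeptidase M, Gm10036 (-0.93) and Lcorl (-0.91), given as differences in normal score. Pik3r1, which encodes a regulatory subunit of phosphoinositide 3-kinase, had 2 further members called lower, at 269 and 297 kb upstream (-0.69 and -0.66).

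Some of the members called lower moved by small steps at the head of the order, where normal scores are stretched. The member 321 kb upstream of Atp2b1 stood at 99.94, 99.94 and 99.97 with vehicle and at 99.87, 99.87 and 99.90 with hormone among the 4345 regions, a fall by 0.26 (adjusted p = 0.0093 by limma). The member near Csl went from a mean of 99.81 to 99.50 (adjusted p = 0.012). In the whole-list percentile both differences turned positive. With limma's trend setting off both differences stayed the same, but the adjusted p was 0.36 for Atp2b1 and 0.26 for Csl. Neither was then called. The member 182 kb downstream of Maf went from 97.6 to 91.6 (adjusted p = 0.010) and the member in Rabgap1l from 96.9 to 91.7 (adjusted p = 0.028).

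**Figure D5:**
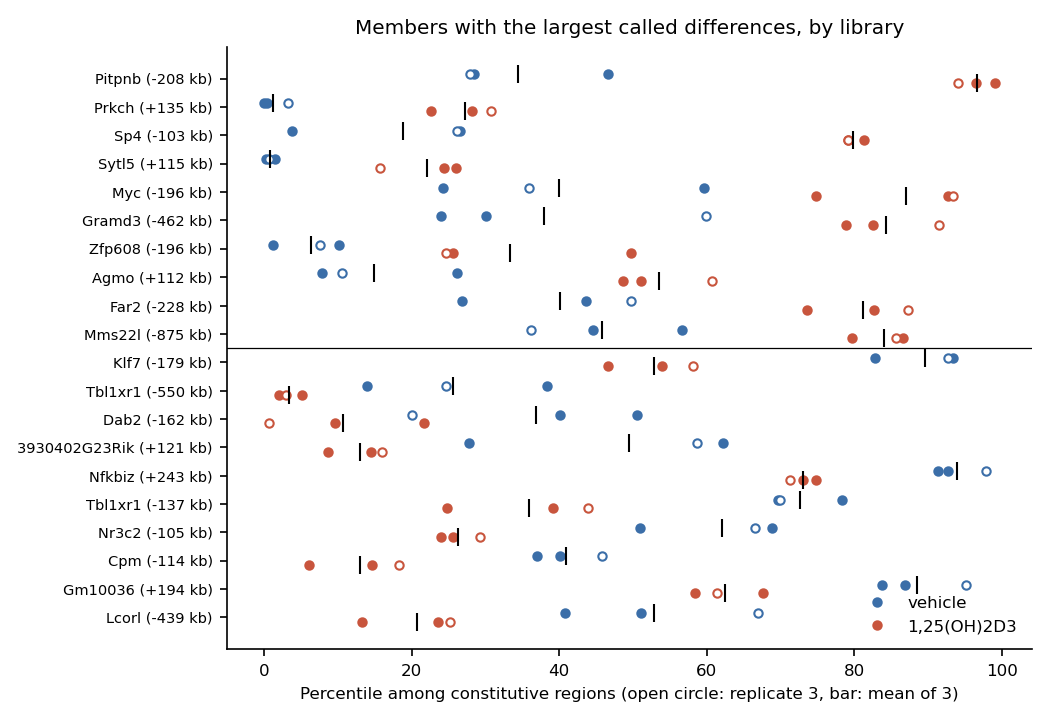
Percentile among the 4345 constitutive regions of the 10 members with the largest rise (top) and the 10 with the largest fall (bottom), 1 point per library, with distances from the nearest start in kb. Open circles are replicate 3 and bars are means of 3 libraries. Only the Dab2 row has groups that overlap.

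Split by call, which was done after the data were seen, 10 of the 23 members called higher had a DR3 with at most 1 mismatch (43.5%, 25.6 to 63.2) and 3 of the 23 called lower (13.0%, 4.54 to 32.1), with 30.4% of those not called. The intervals of the first and the second overlapped. Over all constitutive regions the shares were 44.5% of 272, 17.5% of 228 and 27.6% of the rest. AGATAAG was in 3 of the 23 members called higher (13.0%, 4.54 to 32.1). It was in 6 of the 23 called lower (26.1%, 12.5 to 46.5) and in 10.4% of those not called (7.59 to 14.1). These intervals overlapped. Over all constitutive regions AGATAAG was in 7.35% of those called higher and in 10.5% of those called lower. TGANTCA was in 4 of 23 in both directions.

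Divided into 4 groups of nearly equal size by order, from highest to lowest, 41.7%, 28.4%, 16.8% and 33.3% had a DR3 with at most 1 mismatch. The intervals were 32.3 to 51.7, 20.3 to 38.2, 10.6 to 25.6 and 24.7 to 43.2, and those of neighbouring groups overlapped. The highest group had the largest share, and no shape is read from the rest. Over all constitutive regions the shares were 38.2%, 24.1%, 24.0% and 26.1%. Intronic members had such a DR3 in 42.3% (31.5 to 53.8) and those between genes in 27.3% (22.7 to 32.5), and these intervals overlapped slightly. TGANTCA was as common in the members with such a DR3 (16.5%) as in those without (16.5%). AGATAAG was in 7.83% (4.17 to 14.2) and 13.1% (9.58 to 17.7), and these intervals overlapped. Over all constitutive regions AGATAAG was in 9.25% of those with such a DR3 and in 10.3% of those without.

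Other peaks around the members were counted per library within 50 kb of the centre. The mean number of other regions with a peak was 1.20, 1.98 and 3.84 in vehicle replicates 1 to 3 and 2.83, 3.35 and 4.13 in the hormone libraries. The groups overlapped because the deep vehicle library exceeded 2 of the hormone libraries, and the group means were 2.34 ± 1.35 and 3.44 ± 0.652 (SD, n = 3). The lists differ in depth and length, and their part in these numbers was not tested. Around constitutive regions from 1 to 100 kb the group means were 2.65 ± 1.16 and 4.77 ± 0.809 (SD, n = 3).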

How the data were processed

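Per the submitters' processing notes the authors used Bowtie and HOMER on mm9, with no versions given. Peaks were called per library against 1 shared input, per the file headers (false discovery rate 0.001, at least 4-fold over input and over the surrounding 10 kb, Poisson p 0.0001). The input's label gives the 1,25(OH)2D3 dose, and its signal was not used here. The deposited files hold each peak's start and end in bases. Their score column, as deposited by the authors, is 1 for every peak, so list order was used as the only other value, and what it follows is not stated. Starts came from GENCODE version M1 on NCBI 37, where 0 peaks ran past a chromosome end. The nearest start is over all transcripts of protein-coding genes, and the centre is the midpoint of the merged region.

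The members and lists were chosen with earlier results of these data known. Regions named are the 12 highest and 4 lowest in mean list percentile, the 8 farthest out, the 3 on both sides of 100 kb, the 10 largest calls in each direction, the 8 highest with an exact DR3, up to 4 per gene list and the 5 largest groups. Others were named after their values were seen. limma 3.58.1 (R 4.3.3, trend on) was tested on simulated data before use. Intervals are 95% Wilson and cover counting error only. The alternatives changed overlap, starts, distance, list length, window, mismatches, scale, block and libraries. Some results are not reported here.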

Additional observations from a re-analysis of the deposited data

How the results depend on the processing

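The number of members, 382, became 230 with lists of equal length, 216 with starts of genes of any biotype, 834 at 50 kb and 147 at 200 kb. Leaving out 1 library gave 383 to 641. The share between genes was 77.0% with genes of any biotype. The share with a DR3 was 30.1% with at most 1 mismatch, 6.81% with 0, 54.5% within 50 bp, 79.6% within 150 bp and 77.0% with lists of equal length. The median spread of centres was 95 bp as a range and 32.4 to 37.1 bp without 1 library. The members' median percentile was 82.0 in whole lists and 44.8 to 45.1 without 1 library. Regions near a member numbered 4.29 (vehicle) and 6.27 (hormone) within 100 kb, and 1.90 (hormone) within 25 kb.

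For limma, the percentile in whole lists gave 0 calls in each direction, over the members and over all 4345 regions, and turned the sign for Atp2b1 (0.026) and Csl (0.022), and the other 22 of 24 named called regions lost their call there. The cause was not tested. Without 1 library the calls were 12 to 32 higher and 9 to 22 lower for members, and 139 to 354 and 109 to 255 for all regions. With trend off 15 members were lower. With replicates 1 and 2 only 146 of all regions were lower. With the replicate number as a block there were 35 higher and 28 lower members, and 345 lower over all regions. Same-numbered libraries had correlations of 0.022, 0.171 and 0.311 between their deviations, so the numbers are not taken as pairs. Each library correlated best with its own number except replicate 1 of both groups, and the block lost none of the 46 calls.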
